A study of Rattus norvegicus with 24 samples.

Results

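The FoxO forkhead factors Foxo1, Foxo3 and Foxo4 and their target Depp1 were followed in the medial gastrocnemius of 24 rats, in 4 groups of 6. These 4 genes were chosen by name, with their levels in these same animals already known, and all 4 were found among the 10851 genes measured. Their levels and group differences are therefore a description and not independent evidence. Sed rats received saline and stayed sedentary, Ex rats received saline and trained on a treadmill, CC-Sed rats received monocrotaline and stayed sedentary, and CC-Ex rats received monocrotaline and trained. All were male Wistar rats of a like starting body mass, whose age is not given in the sources used here, and each library came from the left leg of a separate animal. Monocrotaline was given as a single injection, and it damages the lung vessels, so that the right ventricle is overloaded and heart failure with wasting (cardiac cachexia, CC) follows. Rats that died, or whose right ventricle had not enlarged, were not in the CC groups, and training ran while the disease developed.

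FoxO factors are transcription factors held in the cytoplasm when insulin or IGF-1 activates the kinase Akt, which phosphorylates them so that 14-3-3 proteins bind. When that signal falls they enter the nucleus and switch on genes of protein breakdown, autophagy, cell-cycle arrest and fuel switching, and in skeletal muscle they are known as drivers of atrophy. Depp1 (DEPP autophagy regulator 1) is a small protein with a known role in autophagy and oxidative stress, and its gene is a known direct FoxO target that responds to fasting.

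Where the reference table held them, the sequences around the starts of the members' transcripts are shown, because the DNA core bound by FoxO factors can be looked for there. Windows of 300 bases, 250 before and 50 after an annotated start, came from RefSeq on the GRCr8 build, and 3 of the 4 members had one. For Depp1 and Foxo4 the RefSeq gene record begins upstream of the start that was used. Capitals mark the FoxO core GTAAACA or GTAAATA, searched on both strands.
Depp1, chr4:151583121-151583420, plus strand: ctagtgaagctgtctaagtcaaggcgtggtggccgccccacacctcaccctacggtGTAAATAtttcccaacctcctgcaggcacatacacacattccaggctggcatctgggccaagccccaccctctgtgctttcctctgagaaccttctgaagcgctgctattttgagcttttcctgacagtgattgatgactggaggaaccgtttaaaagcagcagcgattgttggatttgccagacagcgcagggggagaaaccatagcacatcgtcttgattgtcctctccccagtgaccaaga
Foxo1, chr2:138462724-138463023, plus strand: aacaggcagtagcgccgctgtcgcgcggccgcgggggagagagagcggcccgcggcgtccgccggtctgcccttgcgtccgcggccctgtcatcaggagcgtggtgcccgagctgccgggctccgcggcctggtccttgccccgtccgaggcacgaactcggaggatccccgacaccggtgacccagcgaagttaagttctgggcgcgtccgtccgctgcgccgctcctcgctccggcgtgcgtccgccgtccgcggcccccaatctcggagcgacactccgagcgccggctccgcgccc
Foxo4, chrX:70425313-70425612, plus strand: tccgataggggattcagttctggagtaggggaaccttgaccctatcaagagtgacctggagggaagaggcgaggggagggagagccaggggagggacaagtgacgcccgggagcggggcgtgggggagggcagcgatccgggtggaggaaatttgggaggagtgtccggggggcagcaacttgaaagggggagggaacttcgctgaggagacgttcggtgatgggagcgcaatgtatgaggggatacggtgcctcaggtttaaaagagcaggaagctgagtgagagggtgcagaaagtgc
The Depp1 window held 1 match, GTAAATA, from base -194 to base -188 relative to the start, and it overlapped no other match. The Foxo1 and Foxo4 windows held none of these letters. Of all 33469 windows of this length, 7.14% held GTAAACA or GTAAATA, and 3.51% held GTAAATA. The palindrome bound by the glucocorticoid receptor was in none of the 3 windows and in 0.439% of all windows. The Foxo1 window was rich in G and C (75%), against 52.67% for Depp1, 60.33% for Foxo4 and a median of 51.67% over all windows. A match is a run of letters and not a measured binding site.

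The libraries held between 37816239 and 50350554 assigned reads, and no gene in the table had fewer than 10 in any rat. Levels are read counts set against library size (CPM) and scaled by the trimmed mean of M values (TMM), and Log2FC is the fitted log2 difference between groups. Gene length was not corrected for, so a level is compared between rats and not between genes. On the leading principal component of all genes CC-Ex replicate 5 stood apart, at 96.484 units, while CC-Sed replicate 4 and CC-Ex replicates 1 and 4 lay within the range of the saline rats. Markers of skeletal muscle were measured in 5 of 6 cases, while Myh7 and Myh1 of slow and fast fibres and Pecam1 of endothelium had no value in the table. Reads come from whole muscle, so fewer cells of a type and less RNA per cell cannot be told apart.

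Foxo1 (ENSRNOG00000013397), whose excess is known to cost mice muscle mass, was low in every saline rat. In Sed its level was 9.63 CPM at the lowest, 12.3 at the median and 17.2 at the highest. In CC-Sed the lowest rat had 16.9 CPM, the median was 63.4 and the highest rat had 126.5. Replicate 4 lay within the Sed range and the other 5 CC-Sed rats lay above it, the lowest of them at 35.3 CPM. Among the trained rats, Ex ran from 9.63 through a median of 10.5 to 13.8 CPM, and CC-Ex from 12.9 through 31.99 to 149.1 CPM. The CC-Ex rats spread over nearly the whole scale, with replicates 5 and 6 at 149.1 and 121.5 CPM, replicate 3 at 44.8 CPM, and replicates 1, 2 and 4 at 19.2, 16.8 and 12.9 CPM, close to or within the Ex range. Of the 12 monocrotaline rats, 9 lay above all 12 saline rats.

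Foxo3 (ENSRNOG00000000299), known in muscle as an activator of the ubiquitin ligase genes and of autophagy, was likewise higher in the CC groups by median, over a smaller range. It ran from 9.12 through a median of 11.7 to 22.4 CPM in Sed, and the highest value belonged to replicate 3, well above the next at 13.5 CPM. In CC-Sed it ran from 15.9 through 41.7 to 64.3 CPM. Here too CC-Sed replicate 4 was the lowest and the only one inside the Sed range. In Ex it ran from 10.7 through 13.2 to 17.7 CPM and in CC-Ex from 16.9 through 28.3 to 91.7 CPM. CC-Ex replicate 4 was the lowest and overlapped Ex, and replicate 5 was the highest. As for Foxo1, 9 of the 12 monocrotaline rats lay above every saline rat.

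Foxo4 (ENSRNOG00000033316), the X-linked FoxO gene, moved little. Its level was 140.7, 154.7 and 170.9 CPM at the lowest, median and highest in Sed, and 153.5, 173.6 and 203.5 CPM in CC-Sed. The Ex values were 131.4, 150.9 and 155.0 CPM and the CC-Ex values 142.0, 181.3 and 215.6 CPM. The groups overlapped in each pair, with 3 of 6 CC-Sed rats above the highest Sed rat and 5 of 6 CC-Ex rats above the highest Ex rat. Of the monocrotaline rats, 7 of 12 exceeded all saline rats, and in contrast to Foxo1 the CC-Ex rat that stood apart on all genes was near the group median, at 184.5 CPM.

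Depp1 (ENSRNOG00000023465) separated the sedentary groups completely. In Sed it ran from 6.93 through a median of 13.8 to 22.0 CPM, and in CC-Sed from 27.9 through 48.2 to 83.6 CPM. No CC-Sed rat overlapped the Sed range, which was so for 2.32% of all genes in this direction. The rats at the ends were not those of the FoxO factors, since CC-Sed replicate 3, the highest for Foxo1 and Foxo3, was the lowest for Depp1, and replicate 4, the lowest for both, was at 53.96 CPM. In the trained groups Ex ran from 7.62 through 15.7 to 19.0 CPM and CC-Ex from 17.9 through 40.4 to 202.2 CPM. Only CC-Ex replicate 4 overlapped Ex, and replicate 5 was far above the next rat, at 68.8 CPM. Depp1 was above all 12 saline rats in 11 of the 12 monocrotaline rats.

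**Figure D1:**
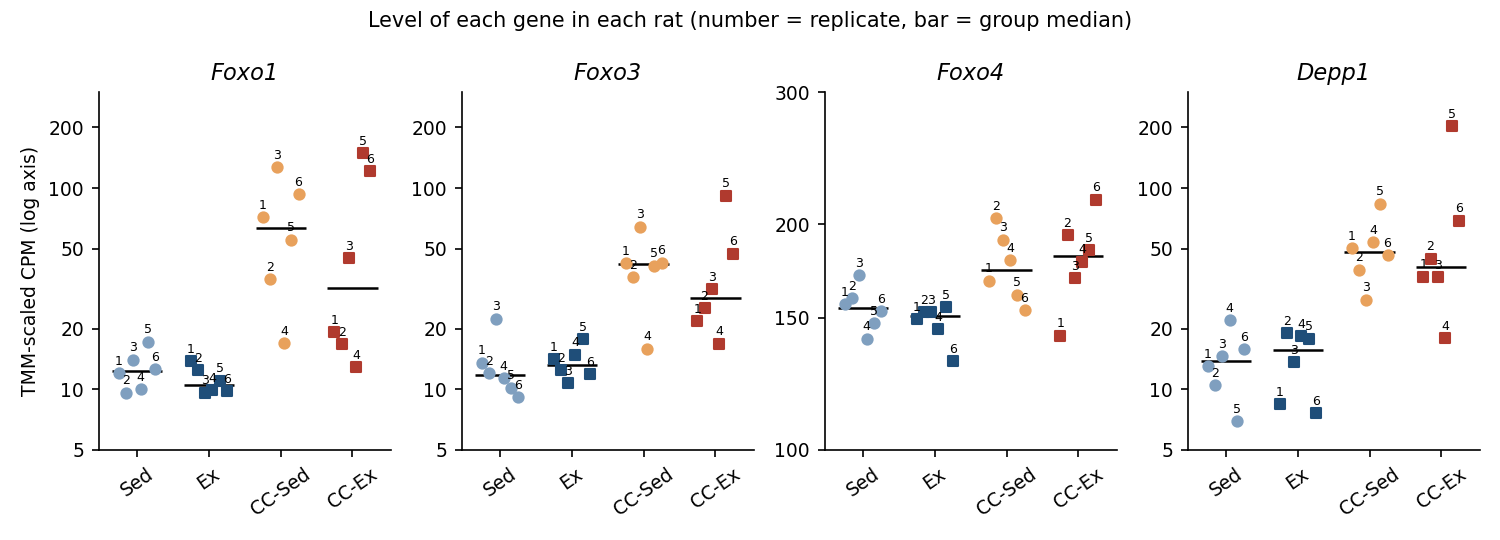
Level of each gene in each rat, as TMM-scaled CPM on a log axis, with 1 panel per gene, the 4 groups on the horizontal axis, replicate numbers on the points and bars at the group medians. The Foxo4 panel has its own, narrower axis. Foxo1 in CC-Ex runs from 12.9 to 149.1 CPM while Foxo4 in the same rats runs from 142.0 to 215.6 CPM, and CC-Ex replicate 5 is the highest point for Foxo1, Foxo3 and Depp1.

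By median, Foxo1, Foxo3 and Depp1 were all ordered CC-Sed, then CC-Ex, then the saline groups. The neighbouring CC-Sed and CC-Ex groups overlapped for each of these genes, as did Sed and Ex, and the lowest CC-Ex rats reached into the saline group next in order. For Foxo4 the order was CC-Ex, CC-Sed, Sed, Ex, and each group overlapped its neighbour.

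The median gene had a wider spread among rats in the monocrotaline groups. Over all genes the median SD of log2 CPM was 0.200 for Sed and 0.195 for Ex, against 0.318 for CC-Sed and 0.372 for CC-Ex. The coefficient of variation of the Foxo1 level was 22.3% in Sed and 15.2% in Ex, against 59.8% in CC-Sed and 98.04% in CC-Ex. On the log2 CPM scale the Foxo1 SD was above that of 97.4% of all genes in CC-Sed and of 98.6% in CC-Ex, while in Ex it was above 54.1%. Foxo4 was among the steadier genes in every group, at percentiles from 10.8 to 17.1. The Depp1 spread was already wide in saline rats, at percentiles 92.8 in Sed and 93.2 in Ex, and in CC-Sed its percentile was 79.7. The Foxo3 percentile was 88.2 in Sed and 88.8 in CC-Sed, with coefficients of variation of 36.7% and 38.3%, and it was 64.7 in Ex and 91.4 in CC-Ex. These percentiles are a description and were not tested.

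Whether monocrotaline changed these genes in sedentary muscle is asked by Sed vs. CC-Sed. Foxo1, Foxo3 and Depp1 were upregulated and Foxo4 did not pass. A gene is called here when its p-value from edgeR's quasi-likelihood test, adjusted over all 10851 genes by the Benjamini-Hochberg method, is under 0.05. A DEG is a called gene whose Log2FC is 1 or more away from 0. The Foxo1 Log2FC was 2.40 ± 0.52 (SE, n = 6 per group, edgeR adjusted p = 0.0138), which is 5.28-fold and the 16th highest of all genes. For Foxo3 it was 1.62 ± 0.35 (edgeR adjusted p = 0.0137), or 3.08-fold. The Depp1 difference was 1.86 ± 0.44 (edgeR adjusted p = 0.0189), or 3.64-fold. Foxo4 differed by 0.19 ± 0.092 on the log2 scale (edgeR adjusted p = 0.184), with a 95% interval from -0.0037 to 0.38. Thus 3 of the 4 members were called higher, where 4.3% of all genes were, and these 3 were also DEGs, against 1.38% of all genes. Since the members were named with these values in view, nothing is read from that contrast. Without Sed replicate 2 the Depp1 adjusted p was 0.0519, and in all other fits that left out 1 rat these 3 calls held. Over all genes 204 were called without Sed replicate 2, against 701 with all rats.

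The same question in trained muscle, Ex vs. CC-Ex, gave differences in the same direction. Foxo1 was higher in CC-Ex by a Log2FC of 2.45 ± 0.52 (SE, n = 6 per group, edgeR adjusted p = 0.0329), or 5.47-fold. Foxo3 was higher by 1.52 ± 0.35 (edgeR adjusted p = 0.0350) and Depp1 by 2.26 ± 0.45 (edgeR adjusted p = 0.0325). Foxo4 differed by 0.29 ± 0.092 (edgeR adjusted p = 0.0890), a difference that DESeq2 and limma-voom called. The count called higher was again 3 of 4, against 0.875% of all genes, with the same reservation. These calls were less firm than the sedentary ones, and all 3 were lost when only the Ex and CC-Ex rats were fitted. Leaving out any 1 Ex rat, CC-Ex replicate 5 or CC-Ex replicate 6 ended the calls of Foxo1, Foxo3 and Depp1, and that of Foxo3 was also lost without CC-Ex replicate 3. The adjusted p-values by edgeR in these fits reached 0.0943, 0.111 and 0.0923. Calls over all genes fell in the same fits. They numbered 108 with all rats, and between 2 and 5 without any 1 Ex rat, CC-Ex replicate 5 or CC-Ex replicate 6. They were 42 without CC-Ex replicate 3 and 1 with only the Ex and CC-Ex rats. Without 1 Ex rat the Log2FC stayed near 2.45 for Foxo1, 1.52 for Foxo3 and 2.26 for Depp1. The lost calls are therefore not particular to these 3 genes. Without CC-Ex replicate 5, the rat that stood apart, the Log2FC was 1.94 for Foxo1, 1.05 for Foxo3, 0.27 for Foxo4 and 1.515 for Depp1, so the sizes fell but the direction did not change. By limma-voom with quality weights the Log2FC was 1.508 for Foxo1, 1.103 for Foxo3 and 1.539 for Depp1 among trained rats, against 2.34, 1.644 and 1.844 among sedentary rats, and all were called.

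Averaged over both training states, 12 monocrotaline rats against 12 saline rats, the mean CC effect was a Log2FC of 2.43 ± 0.37 for Foxo1 and 2.06 ± 0.31 for Depp1 (SE, edgeR adjusted p = 2.92e-04 for each). It was 1.57 ± 0.24 for Foxo3 (edgeR adjusted p = 3.21e-04). Foxo4 also passed here, at 0.24 ± 0.065 (edgeR adjusted p = 0.0116), which is 1.18-fold. All 4 members were called higher, as were 17.2% of all genes. All 4 stayed called in each of the 24 fits without 1 rat, but Foxo4 was not called with upper-quartile scaling or with the library number as a covariate. Library numbers were mostly lower in monocrotaline than in saline rats, so that covariate and monocrotaline cannot be fully told apart.

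No effect of training on the members was detected. In Sed vs. Ex the Log2FC was -0.18 for Foxo1 (95% interval -1.21 to 0.85), 0.053 for Foxo3 (-0.65 to 0.76), -0.067 for Foxo4 (-0.26 to 0.12) and 0.035 for Depp1 (-0.85 to 0.92). In CC-Sed vs. CC-Ex it was -0.13 for Foxo1 (-1.15 to 0.89), -0.049 for Foxo3 (-0.75 to 0.65), 0.037 for Foxo4 (-0.15 to 0.23) and 0.43 for Depp1 (-0.45 to 1.31). By limma-voom with quality weights the CC-Sed vs. CC-Ex values were lower, at -0.918 ± 0.46 (SE) for Foxo1 and -0.503 ± 0.29 for Foxo3 (limma adjusted p = 0.627 and 0.646). None was called, and neither was any other gene by edgeR, DESeq2 or limma-voom. By edgeR, 118 genes in Sed vs. Ex and 234 in CC-Sed vs. CC-Ex had an unadjusted p under 0.05, and no member was among them. The intervals of Foxo1, Foxo3 and Depp1 were wide, so a moderate effect of training on them was not detectable with 6 rats a group, while the Foxo4 intervals were narrow.

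The interaction asks whether the monocrotaline effect differed between trained and sedentary rats. It was 0.050 for Foxo1 (95% interval -1.40 to 1.501), -0.10 for Foxo3 (-1.09 to 0.89), 0.10 for Foxo4 (-0.17 to 0.37) and 0.40 for Depp1 (-0.85 to 1.64), on the log2 scale. All adjusted p-values by edgeR were 0.9996. No gene was called by edgeR, DESeq2 or limma-voom, and 154 had an unadjusted p under 0.05 by edgeR. The larger count of calls among sedentary than among trained rats therefore does not show that these genes responded differently.

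**Figure D2:**
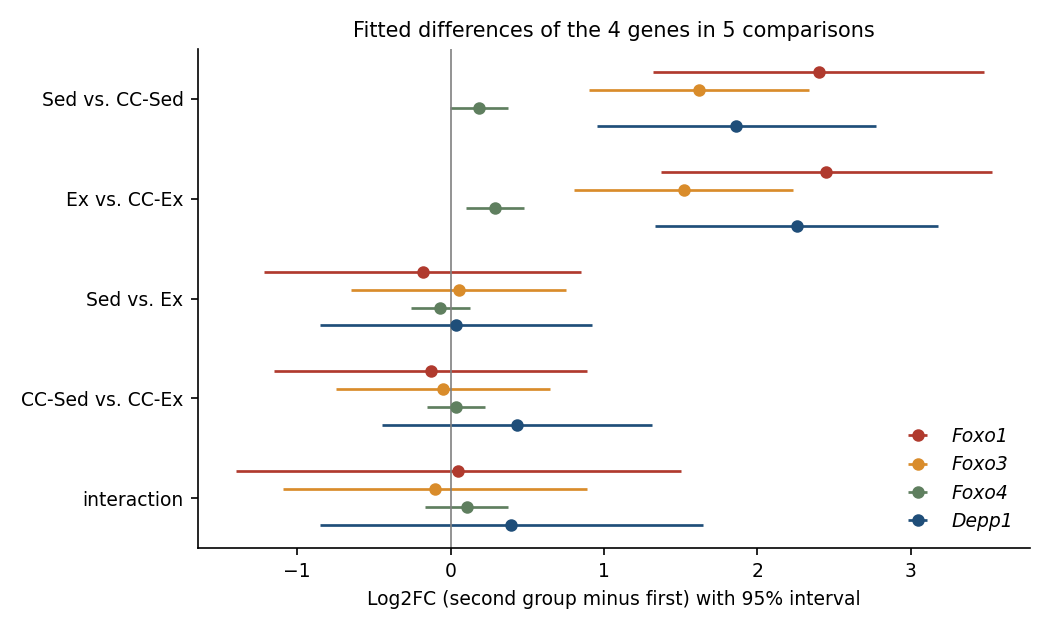
Fitted Log2FC of the 4 genes (horizontal axis, log2 units, the group named last minus the group named first) with 95% intervals, for 4 comparisons of groups and for the interaction. Foxo1, Foxo3 and Depp1 lie well above 0 in the sedentary and the trained CC comparison, Foxo4 lies at 0.19 and 0.29, and every interval for training and for the interaction includes 0.

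How the members varied from rat to rat was examined with group means subtracted, so that the differences between groups did not enter. The 6 pairs were tested by permuting rats within groups 100000 times. Foxo1 and Foxo3 rose and fell together, with a Pearson r of 0.844 (permutation p adjusted over 6 pairs = 3.60e-04) and a Spearman rho of 0.715 (permutation adjusted p = 0.00528) over 24 rats. Among the 12 monocrotaline rats r was 0.941 and among the 12 saline rats 0.129, and the difference between them was not tested. Without CC-Ex replicate 5 and CC-Sed replicate 4, the 2 rats farthest from the median of Foxo1, r was 0.692. Among all 10850 other genes Foxo3 ranked 55th in likeness to Foxo1, and Foxo1 ranked 44th in likeness to Foxo3.

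Depp1 followed the factors less closely. Its r was 0.513 with Foxo3 (permutation p = 0.0483, adjusted p = 0.145) and 0.416 with Foxo1 (permutation adjusted p = 0.332), and rho was 0.349 and 0.163 (permutation adjusted p = 0.341 and 0.612). Without CC-Ex replicate 5 alone these r values were 0.206 and 0.130, and without CC-Sed replicate 4 as well they were 0.322 and 0.199. Within the monocrotaline rats they were 0.608 and 0.551, and within the saline rats 0.215 and -0.379. Without CC-Sed replicate 3, in which Foxo1 and Foxo3 were highest and Depp1 lowest, r between Foxo3 and Depp1 was 0.641 and passed (permutation adjusted p = 0.0295). In likeness to Depp1, Foxo3 ranked 679th and Foxo1 1496th of 10850 genes. The 3 pairs with Foxo4 had r between 0.130 and 0.318 (permutation adjusted p from 0.390 to 0.659) and rho between 0.057 and 0.319 (permutation adjusted p from 0.341 to 0.822). Without the 2 farthest rats r was 0.270 for Foxo1 and Foxo4, 0.475 for Foxo3 and Foxo4 and 0.0035 for Foxo4 and Depp1, where CC-Ex replicates 1 and 6 were left out.

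**Figure D3:**
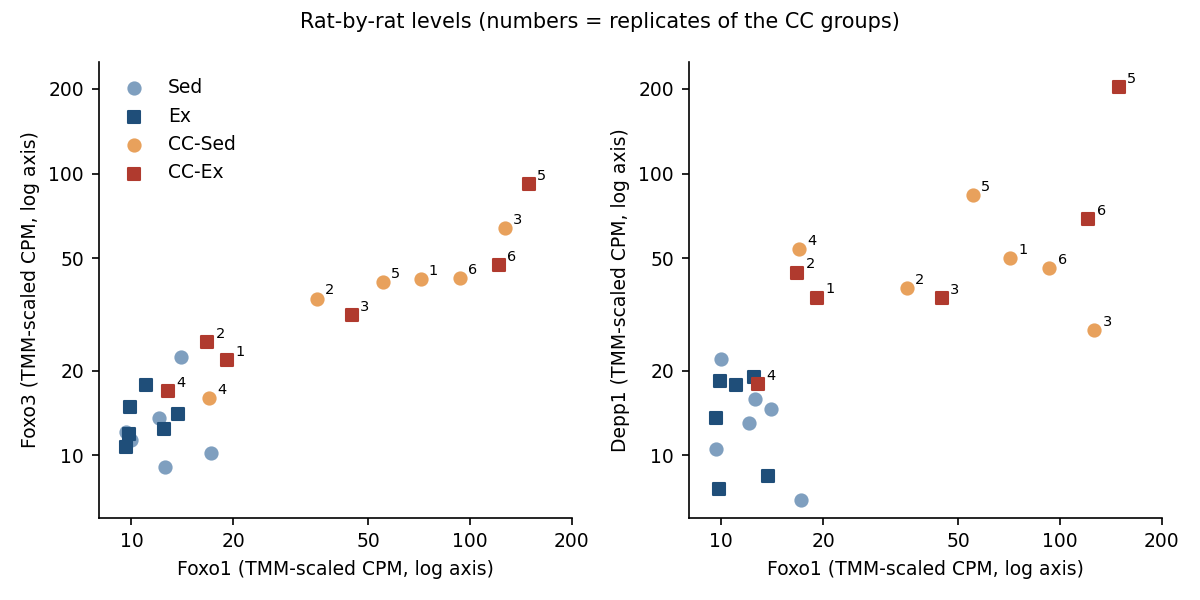
Rat-by-rat levels, TMM-scaled CPM on log axes, of Foxo3 against Foxo1 (left) and Depp1 against Foxo1 (right), with replicate numbers on the monocrotaline rats. On the left the CC rats climb along 1 line from CC-Ex replicate 4 (12.9 and 16.9 CPM) to CC-Ex replicate 5 (149.1 and 91.7 CPM), and on the right CC-Sed replicates 3 and 4 lie off such a line.

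Pearson r of each gene with each member, with group means subtracted, was taken over 24 rats and not again without CC-Ex replicate 5. The genes most like each member from rat to rat are given as a description with no test. For Foxo1 they were Cir1 (r = 0.953), a transcriptional corepressor of Notch signalling, Cdkn2aip (0.936), Sesn1 (0.919), a sestrin that restrains mTORC1, the amino acid transporter gene Slc7a6 (0.916) and the autophagy kinase gene Ulk1 (0.907). At the other end were Dnaaf10 (-0.903), Rhobtb2 (-0.896) and Mrtfa (-0.888), an actin-regulated coactivator of serum response factor. For Foxo3 the highest were Sesn1 (0.914), the chromatin regulator gene Ankrd11 (0.901), Tut4 (0.897), an enzyme that adds uridine to RNA ends, Ascc1 (0.896) and Gpatch8 (0.895), and the lowest Osr1 (-0.868), Itgae (-0.856) and Prex1 (-0.852). Sesn1 was thus on the lists of both factors.

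For Depp1 the genes most alike were Cyth1 (0.804), Flcn (0.801), whose product folliculin controls the lysosomal TFEB family, Traf3ip1 (0.787), Osbpl2 (0.783) and Mitf (0.782), a member of that family. Tfeb itself, from the list of FoxO targets, ran opposite to Depp1 (-0.697, rank 10823 of 10850). The lowest for Depp1 were Arhgap32 (-0.831), Sync (-0.812) and Incenp (-0.788). For Foxo4 the highest were Rab5b (0.818), a GTPase of early endosomes, Bap1 (0.754), Tmem203 (0.747), Tex261 (0.746) and Gpr180 (0.732), and the lowest Irag2 (-0.767), Casp9 (-0.723) and Tpcn2 (-0.720). None of these genes was shared with the lists of Foxo1, Foxo3 or Depp1.

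Genes known as FoxO targets in muscle were next counted. Of 40 such genes listed, 38 were measured, and 14 were called higher and 0 lower in Sed vs. CC-Sed (36.8%, against 4.3% higher and 2.16% lower over all genes). Their median Log2FC was 0.99, against 0.02 over all genes. The list was drawn up with earlier results of these animals known, and no test was made over it. Leaving out any 1 Sed rat, or CC-Sed replicate 1, 3 or 6, left between 4 and 9 called, and leaving out CC-Sed replicate 4 gave 19. Over all genes the count called was 701 with all rats, between 173 and 446 in the former fits and 1726 in the latter. The 8 with the smallest p are named. Among atrophy and growth regulators, Fbxo32, the ubiquitin ligase atrogin-1, rose by a Log2FC of 2.62 (edgeR adjusted p = 0.0200), the mTORC1 inhibitors Ddit4 and Sesn1 by 2.85 (0.0138) and 2.19 (0.0177), and the translation repressor Eif4ebp1 by 2.09 (0.0159).

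Among genes of fuel use and defence, Pnpla2, the lipase that opens triglyceride stores, rose by a Log2FC of 2.15 (edgeR adjusted p = 0.0120), the transcription factor Klf15 by 1.39 (0.0236), the insulin receptor gene Insr by 0.81 (0.0137) and catalase (Cat) by 0.87 (0.0171). In Ex vs. CC-Ex, 6 of 38 were called higher and 0 lower (15.8%, against 0.875% and 0.12% over all genes), with a median Log2FC of 0.96. They were Fbxo32 at 3.02 (edgeR adjusted p = 0.0329), Ddit4 at 2.83 (0.0329), Sesn1 at 2.31 (0.0342), the autophagosome gene Gabarapl1 at 2.10 (0.0325), the stress gene Gadd45g at 1.81 (0.0366) and Klf15 at 1.68 (0.0325). That count was 0 without any 1 Ex rat, CC-Ex replicate 5 or CC-Ex replicate 6, 15 without CC-Ex replicate 1 and 22 without CC-Ex replicate 4. Over all genes, where 108 were called with all rats, between 2 and 5 were called in the fits that gave 0. The all-gene count was 499 without CC-Ex replicate 1 and 847 without CC-Ex replicate 4.

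In the mean CC effect 26 of the 38 targets were called higher and 1 lower (71.1% called, against 27.8% of all genes). The 1 that was lower was Sesn3, the other sestrin of the list, at a Log2FC of -0.93 (edgeR adjusted p = 0.00527), named after its value was seen. It did not pass in either single comparison, at -0.90 in Sed vs. CC-Sed and -0.96 in Ex vs. CC-Ex (edgeR adjusted p = 0.0737 and 0.0929). In Sed vs. Ex, CC-Sed vs. CC-Ex and the interaction 0 of 38 were called. Promoter windows were found for 33 of the targets, and 4 of them (12.1%, against 7.14% of all windows) held GTAAACA or GTAAATA. These were Bcl2l11, Insr, Pdk4 and Trim63, which are named because they make up that count. The 1 target that shared the Depp1 letters GTAAATA was Pdk4, the kinase that turns off pyruvate dehydrogenase. That is 3.03% of the target windows, near the 3.51% of all windows, so nothing is read from it.

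**Figure D4:**
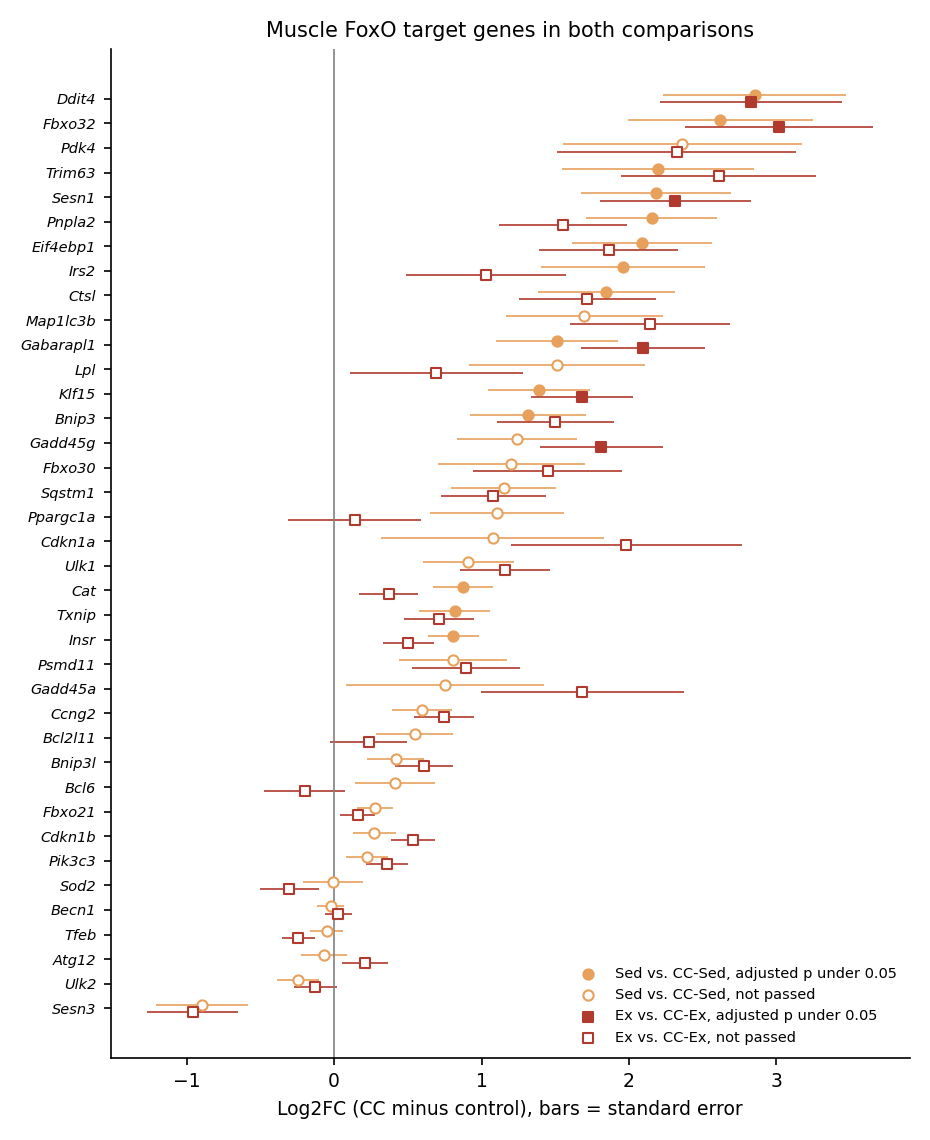
Log2FC with standard errors (horizontal axis, log2 units, CC minus control) of the 38 measured FoxO target genes in Sed vs. CC-Sed (circles) and Ex vs. CC-Ex (squares), with filled symbols where the edgeR adjusted p was under 0.05. The 14 filled circles and 6 filled squares all lie to the right of 0, and Sesn3 lies lowest in both comparisons.

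From rat to rat, with group means subtracted, the 38 targets had their highest median r with Foxo1 and their lowest with Foxo4. The median was 0.686 with Foxo1, 0.620 with Foxo3, 0.420 with Depp1 and 0.067 with Foxo4, where the medians over all genes were 0.0056, 0.00062, 0.040 and -0.022. Sesn3 ran opposite to Foxo1 (r = -0.656) and Foxo3 (-0.607). The target most like Depp1 was Pdk4 (0.696, rank 49 of 10850), which was at 0.411 with Foxo1, and Pnpla2 (0.694) and Klf15 (0.647) came next. The targets on either side of the Foxo1 median, Psmd11 (0.706) and Txnip (0.665), ranked 726th and 1072nd of 10850 genes, so many other genes were as alike. These r values share the same 24 libraries, were not recomputed without CC-Ex replicate 5 and are given with no test.

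**Figure D5:**
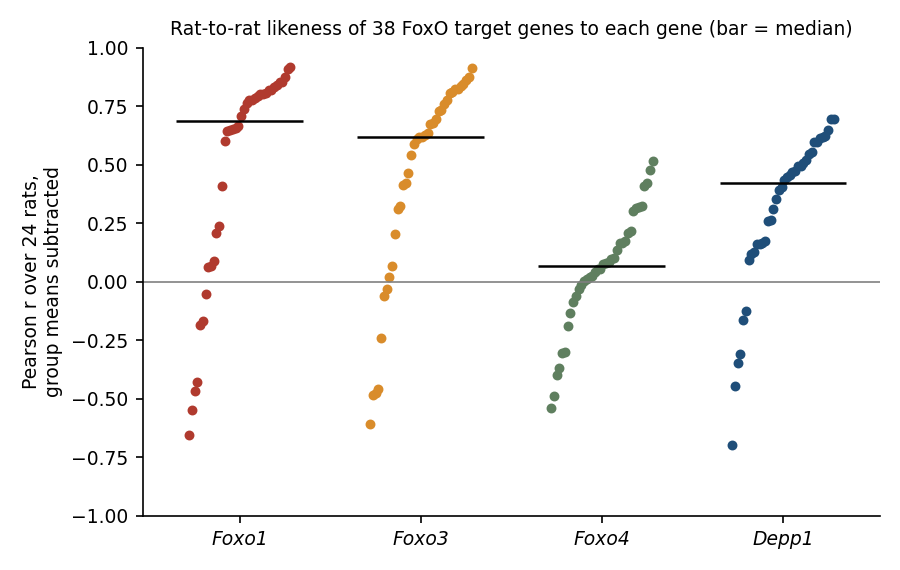
Pearson r over 24 rats, with group means subtracted (vertical axis, no unit), of each of 38 FoxO target genes with Foxo1, Foxo3, Foxo4 and Depp1, with bars at the medians. The medians are 0.686, 0.620, 0.067 and 0.420, and the points for Foxo4 lie between -0.541 and 0.515.

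The genes upstream of the FoxO factors moved in both directions. Of 27 genes of the insulin and IGF-1 kinase pathway and the 14-3-3 family, 25 were measured, and in Sed vs. CC-Sed 2 were called higher and 3 lower (20% called, against 6.46% of all genes), with a median Log2FC of -0.02. The growth factor gene Igf1 fell by 1.07 on the log2 scale (edgeR adjusted p = 0.0153) and the docking protein gene Irs1 fell by 1.48 (0.0479). The phosphatase gene Inppl1, whose product SHIP2 removes the lipid signal that recruits Akt, fell by 0.64 (0.0350). The IGF-1 receptor gene Igf1r rose by 1.45 (0.0307), and Pik3r1, which encodes the regulatory subunit of phosphoinositide 3-kinase, by 1.66 (0.0162). In Ex vs. CC-Ex only Pik3r1 was called, at a Log2FC of 1.75 (edgeR adjusted p = 0.0329). For the mean CC effect 4 of the 25 were called higher and 5 lower (36% called, against 27.8% of all genes).

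Genes whose products modify or bind FoxO proteins were mixed too. Of 32 listed, 31 were measured, and 3 were called higher and 3 lower in Sed vs. CC-Sed (19.4% called, against 6.46% of all genes), and none of the 6 was a DEG. The acetyltransferase gene Crebbp rose by 0.54 (edgeR adjusted p = 0.00834), the deacetylase gene Sirt1 by 0.52 (0.0147) and the casein kinase gene Csnk1d by 0.53 (0.0254), all on the log2 scale. The TGF-beta mediator gene Smad3 fell by 0.96 (0.0389), the methyltransferase gene Setd7 fell by 0.88 (0.0469) and the nuclear exporter gene Xpo1 fell by 0.73 (0.0479). None of the 31 was called in Ex vs. CC-Ex by edgeR, and 9 had an unadjusted p under 0.05. DESeq2 called 2 of them and limma-voom 5. Over all 10851 genes these counts were 108, 2448, 685 and 1043 in the same order. For the mean CC effect edgeR called 7 higher and 6 lower (41.9% called, against 27.8% of all genes).

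Of 20 other forkhead genes, 12 were measured and Foxo6 was not among them. In Sed vs. CC-Sed 1 was called (8.33%, near the 6.46% of all genes), and the count was 0 when at least 50 counts were asked of every rat and on leaving out any 1 of Sed replicates 2 to 6 or of CC-Sed replicates 1, 3, 5 and 6. The gene was Foxs1, which fell by 1.08 on the log2 scale (edgeR adjusted p = 0.0419). Where the sedentary count was 0, 694 of 9136 genes were called at 50 counts, and 173 to 422 of 10851 without 1 rat. Among the trained rats edgeR called 0, with 5 at an unadjusted p under 0.05, while DESeq2 called 2 and limma-voom 1. Over all 10851 genes these trained counts were 108, 2448, 685 and 1043 in the same order. The median Log2FC of the 12 was 0.16 for the sedentary and 0.07 for the trained rats. For the mean CC effect 3 of the 12 were called higher and 2 lower (41.7% called, against 27.8% of all genes).

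Genes that respond to glucocorticoids, which are known to act on FoxO genes in muscle, were counted in the same rats. Of 18 listed, 14 were measured, and 8 were called higher and 0 lower in Sed vs. CC-Sed (57.1%, against 4.3% and 2.16% of all genes), with a median Log2FC of 1.12. The largest of these was the metallothionein gene Mt2A, at 5.28 (edgeR adjusted p = 0.0286), followed by the transcription factor gene Cebpd at 2.58 (0.0147) and the feedback inhibitor gene Errfi1 at 2.50 (0.0463). Pim3 was at 1.96 (0.00596), the glucocorticoid receptor chaperone gene Fkbp5 at 1.91 (0.0148), Glul, which encodes glutamine synthetase, at 1.32 (0.0206), Zbtb16 at 1.03 (0.0497) and Klf9 at 0.74 (0.0147). In Ex vs. CC-Ex 4 were called higher (28.6%, against 0.875% of all genes), namely Mt2A at 6.56, Cebpd at 2.67, Glul at 1.78 and Pim3 at 1.65 (edgeR adjusted p = 0.0342, 0.0329, 0.0325 and 0.0329). That count of 4 was 0 with the replicate block, with only the rats compared, and on leaving out any 1 of Ex replicates 2 to 6 or of CC-Ex replicates 5 and 6. It was 1 without Ex replicate 1, 8 without CC-Ex replicate 1 and 9 without CC-Ex replicate 4, and DESeq2 called 9. Over all genes the counts called were 4, 499, 847 and 685 in the same order, and between 1 and 5 in the fits that gave 0. For the mean CC effect 13 of the 14 genes were called higher and 0 lower (92.9% called, against 27.8% of all genes). Their part in the rise of Foxo1, Foxo3 and Depp1 was not tested.

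Markers of other cell types were read in the same rats, since FoxO factors also act in vessels and other cells. Of 11 endothelial markers 9 were measured, and 1 of them, Vwf, was called higher in the sedentary and the trained comparison (Log2FC 1.41 and 1.12). That is 11.1% in each, against 6.46% and 0.995% of all genes. In Sed vs. CC-Sed 4 of the 9 had a Log2FC above 0, with a median of -0.038, and in Ex vs. CC-Ex 6 did, with a median of 0.050. The summed endothelial level was 237.5 to 371.1 CPM in Sed, 241.7 to 357.3 in Ex, 263.0 to 398.7 in CC-Sed and 259.7 to 417.1 in CC-Ex, so all groups overlapped. None of 5 measured slow-fibre markers was called (1 had an unadjusted p under 0.05 among sedentary rats and 0 among trained rats). Over all 10851 genes, 3083 and 2448 had such a p by edgeR. All 5 markers were higher on average in CC-Sed than in Sed, with a median Log2FC of 1.70. In Ex vs. CC-Ex 3 of the 5 were higher, with a median of 0.16, and all 5 were higher in Ex than in Sed, with a median of 1.13. Their sums ran from 769.9 through a median of 2070 to 4025 CPM in Sed, from 1001 through 3675 to 10707 in Ex, from 1170 through 6309 to 11812 in CC-Sed and from 684.9 through 5410 to 9060 in CC-Ex. None of 7 fast-fibre markers was called (2 and 0 at an unadjusted p under 0.05), and the median of their sum was 89048 CPM for CC-Sed, below Sed (127681), Ex (127091) and CC-Ex (129228), with overlapping ranges. CC-Ex replicate 5, the highest rat for Foxo1, Foxo3 and Depp1, was the lowest of the CC-Ex rats for the sums of the skeletal muscle, slow-fibre, endothelial and fibroblast markers. The same was so for the smooth muscle and pericyte, erythroid and Schwann cell sums. Its fast-fibre sum, at 140642 CPM, was above the CC-Ex median of 129228, and its adipocyte, macrophage and satellite cell sums were not the lowest. The 6 fibroblast markers summed to 398.9 to 2836 CPM in Sed, 830.2 to 4962 in Ex, 480.6 to 1494 in CC-Sed and 151.1 to 1571 in CC-Ex, and 0 were called by edgeR in either single comparison (0 and 3 at an unadjusted p under 0.05), with 3 lower in the mean CC effect. Apart from Vwf no marker of any list was called in either single comparison. In the mean CC effect, where 27.8% of all genes were called, 4 of 9 endothelial markers were, Vwf, Kdr and Esam higher and Tie1 lower. The globin genes Hbb and Hba-a1 were called higher. Myf5 was called higher too, but only 1 of the 2 measured satellite cell markers had a Log2FC above 0. Its level was low, with group means from 1.27 to 2.43 CPM. Acta2 and Tagln of smooth muscle and Adipoq of adipocytes were called lower. The part of cell makeup in the members' levels was not tested.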

How the data were processed

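RNA of 24 rats, 1 poly-A library per rat, was sequenced from the medial gastrocnemius. According to the submitters' processing notes and the study's methods, the authors trimmed reads with Trim Galore, quantified transcripts with Salmon on mRatBN7.2 and summed them to genes, and the authors deposited the estimated counts per gene as 1 table, listed as whole numbers with none below 10. The filter behind that minimum is not given in the sources used here, and genes low in any rat are not analysed here. The notes also name DESeq2 1.44.0, the authors' own test, none of whose output was used.

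The counts of all 10851 genes were scaled by TMM and fitted with edgeR 4.0.16 (R 4.3.3) by its quasi-likelihood test, in 1 model of 4 group means over 24 rats. filterByExpr removed 0 genes. P-values were adjusted over all genes by the Benjamini-Hochberg method. Standard errors are the Log2FC divided by the root of F, and log2 CPM used a prior count of 2. The fit was checked on simulated counts. Replicates are separate animals, and each group had 6.

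The members, gene lists and tests were chosen with earlier results of these data known. From each list the text names up to 8 called genes per comparison with the smallest p, and for each member the 5 most and 3 least alike genes. Sed vs. Ex, CC-Sed vs. CC-Ex and the interaction were added here to the RNA-seq comparisons that the study's text names. The alternatives were DESeq2 1.42.0, limma-voom 3.58.1 with quality weights, upper-quartile scaling, no filter, at least 50 counts in every rat, a replicate block, the number in the library name as a covariate, a fit of only the rats compared, a prior count of 0.5, and each rat left out in turn.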

Additional observations from a re-analysis of the deposited data

Results flagged for a closer look

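In 16 sets of 6 rats (4 genes in 4 groups), the gap between the most extreme rat and its nearest neighbour was set against the range of the group, with Dixon's limit of 0.625 for 6 values. Such a limit flags about 1 group in 20 by chance, and 2 sets passed it.

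Foxo3 in Sed replicate 3 was at 22.4 CPM, against 13.5 CPM in the next rat, a gap of 0.667 of the range. Without this rat the Foxo3 Log2FC in Sed vs. CC-Sed was 1.84 in place of 1.62.

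Depp1 in CC-Ex replicate 5 was at 202.2 CPM, against 68.8 CPM in the next rat, a gap of 0.724 of the range. This rat also stood apart on all genes. Without it the Depp1 Log2FC in Ex vs. CC-Ex was 1.515 in place of 2.26 (edgeR adjusted p = 0.0654), and in CC-Sed vs. CC-Ex it was -0.29 in place of 0.43.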

How the results depend on the processing

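The calls of Foxo1, Foxo3 and Depp1 in Sed vs. CC-Sed and in the mean CC effect held under every setting other than leaving out single rats, and their direction held in all fits. The Ex vs. CC-Ex calls did not hold throughout. With a replicate block they were lost, at a Log2FC of 1.951 for Foxo1, 1.357 for Foxo3 and 2.038 for Depp1 (edgeR adjusted p = 0.0761 for each), as they were with only the rats compared, at 2.45, 1.52 and 2.258 (0.169 for each). With upper-quartile scaling Foxo1 was at 2.301 (0.0504) and Foxo3 at 1.382 (0.0541), and with the library number as a covariate Foxo3 was at 1.637 (0.0581). Foxo4 passed in Ex vs. CC-Ex by DESeq2 (0.293, adjusted p = 0.0367) and limma-voom (0.2659, 0.0445), and in the mean CC effect it did not pass with upper-quartile scaling (0.1628, 0.0782) or the library covariate (0.2157, 0.0561). The library covariate and monocrotaline cannot be fully told apart, because library numbers were mostly lower in monocrotaline than in saline rats. The cause of these changes was not tested. Rats with the same replicate number share only that number (their deviations correlated at -0.079 on average over 24 pairs, from -0.588 to 0.375, with 8 over 0.1).

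Differences near 0 changed sign. Depp1 in Sed vs. Ex was -0.059 with the replicate block, and in CC-Sed vs. CC-Ex -0.171 by limma-voom. The interaction of Foxo1 was -0.0067 with upper-quartile scaling, -0.289 with the block and -0.832 by limma-voom, and that of Depp1 was -0.305 by limma-voom. With upper-quartile scaling r was -0.062 between Foxo1 and Foxo4 and -0.119 between Foxo4 and Depp1.

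FoxO targets called in Sed vs. CC-Sed were 24 by limma-voom in place of 14, and in Ex vs. CC-Ex, in place of 6, they were 21 by DESeq2, 18 by limma-voom, 3 with upper-quartile scaling, 0 with the block and 0 with only the rats compared. Over all genes, calls in Ex vs. CC-Ex were 108 by edgeR, 685 by DESeq2, 1043 by limma-voom, 42 with the library covariate, 23 with upper-quartile scaling, 1 with the block and 1 with only the rats compared. In Sed vs. CC-Sed, in place of 701, DESeq2 gave 1331 and limma-voom 2474.

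With 1 rat left out, the Log2FC in Sed vs. CC-Sed ranged from 2.113 to 2.60 for Foxo1, 1.441 to 1.843 for Foxo3, 0.1408 to 0.2173 for Foxo4 and 1.657 to 2.045 for Depp1. In Ex vs. CC-Ex the ranges were 1.938 to 2.661, 1.053 to 1.675, 0.2331 to 0.3506 (called without CC-Ex replicate 1) and 1.515 to 2.456. In the mean CC effect they were 2.153 to 2.531, 1.322 to 1.682, 0.2099 to 0.2686 and 1.676 to 2.16, in Sed vs. Ex -0.2526 to -0.0709, -0.0372 to 0.2735, -0.0927 to -0.0363 and -0.1022 to 0.2165, in CC-Sed vs. CC-Ex -0.6091 to 0.1562, -0.4859 to 0.1324, -0.0205 to 0.097 and -0.2894 to 0.6364, and in the interaction -0.4302 to 0.3378, -0.539 to 0.0796, 0.0464 to 0.164 and -0.3222 to 0.6011. The targets called ranged from 4 to 19, 0 to 22 and 25 to 31 for the sedentary, the trained and the mean CC comparison. Over all genes the counts called in the same fits ranged from 173 to 1726, 2 to 847 and 2207 to 3832. The counts of the other lists among sedentary rats ranged from 2 (without Sed replicate 2) to 7 for upstream genes, 2 to 8 for modifiers, 0 to 2 for other forkhead genes and 4 to 9 for glucocorticoid-responsive genes, and among trained rats from 0 to 3, 0 to 3, 0 to 4 and 0 to 9, the highest without CC-Ex replicate 4. The r between rats ranged from 0.7835 to 0.8803 for Foxo1 and Foxo3, 0.0182 to 0.2997 for Foxo1 and Foxo4, 0.1301 to 0.5353 for Foxo1 and Depp1, 0.2284 to 0.3971 for Foxo3 and Foxo4, 0.2062 to 0.6415 for Foxo3 and Depp1 and 0.0585 to 0.1963 for Foxo4 and Depp1.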

Other observations

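The gene most like Foxo3 from rat to rat, Sesn1, is also near it on the chromosome. In the RefSeq order of protein-coding genes (GRCr8) Armc2 lies next to Foxo3 and Sesn1 next to Armc2. This was looked up after the r values were seen. Armc2, known for its role in sperm flagella, was higher in Sed vs. CC-Sed by a Log2FC of 1.60 and in Ex vs. CC-Ex by 1.77 (edgeR adjusted p = 0.0147 and 0.0325). Its r with Foxo3, with group means subtracted over 24 rats, was 0.630 (rank 1106 of 10850 genes). That of Cd164 was 0.741 (rank 356), of Ostm1 0.689 (658) and of Sec63 0.644 (996), and that of Cep57l1 0.075 (4939). Apart from Sesn1, each of these neighbours had many genes ahead of it by rank. Over the measured neighbours r ran from 0.075 to 0.914 for Foxo3 and from -0.263 to 0.418 for Foxo1. For Foxo4 it ran from -0.129 to 0.075 and for Depp1 from -0.132 to 0.572, and the part of position was not tested. Of the 10 coding genes nearest to Foxo3, 6 were measured, and 2 of them, Armc2 and Sesn1, were called in each comparison, while Cd164, Cep57l1, Ostm1 and Sec63 were not. Over all genes 6.46% were called among sedentary and 0.995% among trained rats.

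The genes around the other members were counted in the same way. Near Foxo1, 8 of the 10 nearest were measured and 1 was called in Sed vs. CC-Sed, Setd7, which fell. Near Foxo4, 3 were measured and 1 was called, Med12, at a Log2FC of 0.40 (edgeR adjusted p = 0.0200). Near Depp1, 4 were measured and 0 were called. In Ex vs. CC-Ex, 0 were called near Foxo1, Foxo4 or Depp1. Over all genes the shares called were 6.46% in Sed vs. CC-Sed and 0.995% in Ex vs. CC-Ex. With so few genes measured, the counts are not compared between members. No test of position was made.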
